A study of Mus musculus with 6 samples.

Results

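The mitochondrial protein import genes described here are the 26 rows of the count table whose mouse symbol begins with Timm or Tomm followed by a digit, of 27179 rows in all. There were 15 Timm and 11 Tomm genes. Of the 26, 25 are protein-coding and 1, Tomm6os, is a long noncoding RNA transcribed opposite to Tomm6. The only pseudogene whose symbol fits, Timm29-ps1, was left out by the rule and has no row in the table.

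RNA came from bone marrow mesenchymal stromal cells of C57BL/6 mice labelled P2, of genotype Cxcl12-dsred/+, in which a red fluorescent reporter marks cells that use the Cxcl12 gene. Cells were sorted for the reporter, and the sources used here name no other gate. RNA selected with oligo(dT) beads was pulled down with 1.25 µg of an antibody to N6-methyladenosine (m6A), a methylated adenosine found inside many mRNAs (anti-m6A, 2 libraries), or with IgG as the background antibody (IgG, 2 libraries), and 6% of the RNA was kept before the pull-down (Input, 2 libraries). All 3 groups share the genotype, strain, age and sort. The labels do not say whether animals were pooled or whether the 2 libraries of a group came from separate animals, so each p-value below is set against a spread that may be technical only.

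Most mitochondrial proteins are made in the cytosol and enter the organelle through protein complexes of its 2 membranes. The translocase of the outer membrane (TOM) has receptors that recognise incoming proteins and a barrel-shaped channel, Tomm40, with small subunits around it. In the space between the membranes, small TIM proteins chaperone hydrophobic cargo. Proteins with a presequence then pass the inner membrane through the TIM23 complex, while carrier proteins are inserted by the TIM22 complex.

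The libraries held 6102070 and 5133237 counts in anti-m6A, 2487148 and 1278735 in IgG, and 7125578 and 9493391 in Input. They detected 12391 to 12714 genes in anti-m6A, 2723 to 3266 in IgG and 10024 to 11186 in Input. A count of 3 corresponded to 0.622 and 0.756 CPM (counts scaled to a common library size, corrected by TMM) in anti-m6A, 1.16 and 1.94 in IgG and 0.355 and 0.291 in Input, and this floor is used wherever a group had 0 counts. All 9 stromal markers checked were detected in each anti-m6A and Input library and 6 of 9 in each IgG library. They took 0.407% and 0.408% of counts in anti-m6A, 0.447% and 0.501% in IgG, and 1.17% and 1.13% in Input. A list of 6 endothelial transcripts had 0 counts in IgG and took at most 0.00786% elsewhere. Of these, Emcn had 23 and 23 counts in anti-m6A and 0 and 511 in Input. A list of 8 hepatocyte transcripts took 2.09% to 2.20% of counts in IgG, against 0.139% in both anti-m6A libraries and 0.171% to 0.317% in Input. Counts of Trf alone were 2810 and 2211 (anti-m6A), 1035 and 370 (IgG) and 11423 and 12832 (Input), and the other 7 genes took 0.0925% to 0.0958% in anti-m6A, 2.05% to 2.17% in IgG, and 0.0107% and 0.182% in the 2 Input libraries, which thus stood apart. A list of 10 blood transcripts took 0.633% to 0.643% in IgG, against 0.0851% to 0.0968% in anti-m6A and 0.0576% to 0.0860% in Input. Of these 10, 4 were detected in each anti-m6A library, 6 in each IgG library and 5 to 6 in Input. Globin genes were detected in every library, while Ptprc, Cd79a and Elane had 0 counts throughout. Mpo had 989 and 370 counts in IgG and 0 elsewhere. S100a8 had 3587 and 1527 in IgG, 213 and 1292 in Input and 0 in anti-m6A. S100a9 had 2090 and 760 in IgG, 184 and 182 in anti-m6A and 52 and 23 in Input. Lyz2 had 181 counts in Input replicate 2 and 0 elsewhere. The part of these transcripts in the results below was not tested. In such bulk libraries fewer cells of a type and less RNA per cell cannot be told apart.

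The short sequence GGACT is a well-known context of m6A in mammals, and the mark is known to be common near stop codons. It was searched on the sense strand of 1 reference coding transcript per gene (GENCODE M21, build GRCm38). Of the 25 coding import genes 22 held it, and of 10324 tested genes with a reference transcript 91.4% did. To show where such sites lie in genes that differed between anti-m6A and Input below, the occurrence nearest the end of the coding sequence is printed with 8 bases on each side, GGACT in capitals and T standing for U. The first 7 belong to genes called higher after the pull-down, the last 4 to genes called lower.
Timm9: tgaggcggGGACTtgcactga
Timm10: gaagaaggGGACTtgtcacgc
Timm10b: cgcatcgcGGACTacgaggct
Timm13: aggagaaaGGACTctgtttat
Timm8a1: tgtatatgGGACTgctttctc
Tomm5: aacaagtaGGACTttgagaac
Tomm7: gggataaaGGACTgtttgaac
Timm29: gagctgaaGGACTgctcttaa
Timm50: gaggtcttGGACTcggtcgtc
Tomm34: gcactcaaGGACTataagtca
Tomm70a: gaccatggGGACTattgaagt

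On GRCm38 these windows lie at chr12:71123523-71123543 (Timm9, minus strand), chr2:84830134-84830154 (Timm10, plus), chr7:105641124-105641144 (Timm10b, plus) and chr10:80899474-80899494 (Timm13, minus). Those of Timm8a1 and Tomm5 lie at chrX:134537834-134537854 and chr4:45105466-45105486, both on the minus strand, and that of Tomm7 at chr5:23839799-23839819 on the minus strand. Among the lower genes they lie at chr9:21594011-21594031 (Timm29, plus), chr7:28305766-28305786 (Timm50, minus), chr2:164054496-164054709 (Tomm34, minus, across an intron) and chr16:57149916-57149936 (Tomm70a, plus). The sites of Timm10b, Tomm34 and Tomm70a are in coding exons and the others in 3′ untranslated regions. The central A lay 4 bases past the end of the coding sequence in Tomm7, 19 in Timm9, 134 in Tomm5, 153 in Timm10, 262 in Timm8a1 and 677 in Timm13, and 70 bases before that end in Timm10b. In the lower genes it lay 153 bases past that end in Timm50 and 183 in Timm29, and 103 bases before it in Tomm34 and 170 in Tomm70a. Of the genes called higher and not printed, Timm17b had its nearest site 78 bases past the coding end, Tomm6 75 bases before it, Tomm20 541 before it in the 5′ untranslated region and Tomm40 917 before it, and Timm8b had no site. Sites within 200 bases of the coding end thus occurred both in genes called higher and in genes called lower. With a single total for each gene, the table does not say which of these positions carried the mark.

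Of each library's counts the 26 genes took 0.530% (exact binomial 95% interval 0.525 to 0.536) and 0.572% (0.566 to 0.579) in anti-m6A, 0.331% (0.324 to 0.338) and 0.288% (0.278 to 0.297) in IgG, and 0.337% (0.333 to 0.342) and 0.308% (0.304 to 0.311) in Input. These intervals, like the floors above, reflect counting error alone, because PCR copies of 1 molecule cannot be recognised. Both anti-m6A libraries were above the other 4. Timm13 alone made up 24.8% of the family's counts in anti-m6A, 21.6% in IgG and 13.3% in Input. Of the 26 genes 24 passed the filter on low counts and were tested. The exceptions were Timm8a2, a paralogue of Timm8a1, with 0 counts in all 6 libraries, and Tomm20l, a relative of the receptor Tomm20, with 3 and 3 counts in anti-m6A and 0 elsewhere.

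**Figure D1:**
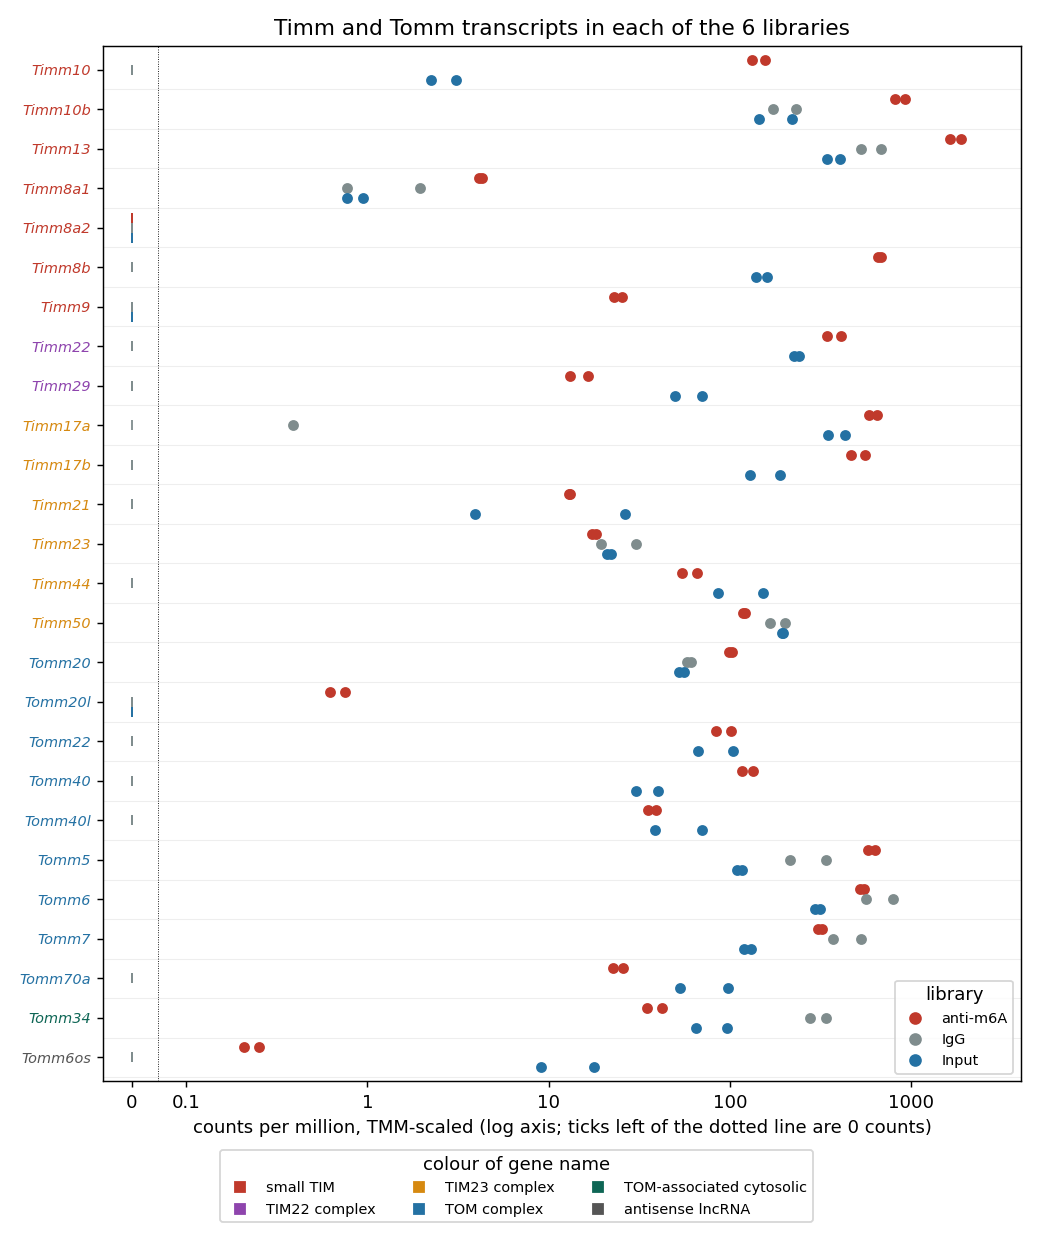
Level of each of the 26 genes in the 6 libraries, in TMM-scaled CPM on a log axis, with 0 counts drawn left of the dotted line. Red points are anti-m6A, grey IgG and blue Input, and gene names are coloured by role. The small TIM genes at the top have both anti-m6A points right of both Input points, apart from Timm8a2, which is at 0 throughout.

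Against Input, the small TIM genes Timm8b, Timm10, Timm10b and Timm13 rose in anti-m6A, as did 1 of 8 subunits of the inner membrane complexes, Timm17b. Timm9 and Timm8a1 were also called higher, but they passed the count filter only through anti-m6A, as did 21.7% of all genes tested, so that filter had largely fixed their direction. Tomm6os passed only through Input, like 9.67% of all genes tested. Over the 24 import genes tested, anti-m6A gave 12 calls higher and 5 lower than Input, where 28.0% of all 11281 genes tested were called higher and 20.5% lower (edgeR's quasi-likelihood test with Benjamini-Hochberg adjustment, adjusted p under 0.05). The median log2 change was 0.75 over the 24 genes and 0.18 over all genes tested. Leaving aside Timm9, Timm8a1 and Tomm6os, 10 were called higher and 4 lower. The shares over all genes were not computed with such genes left out, so they are no background for these counts. Of the TOM genes tested, 5 of 8 were higher and 1 lower. In the TIM23 complex 1 of 6 was higher and 1 lower, and of the 2 TIM22 genes 1 was lower. The counts for the family were 10 higher and 6 lower with DESeq2's size factors and also with library totals alone, scalings under which the median of all genes tested was -0.22 and -0.32 and that of the family 0.31 and 0.21. Of all 11281 genes tested, 2711 were called higher and 2982 lower with DESeq2's size factors, and 2609 and 3127 with library totals. Among all calls 57.8% were higher with TMM, 47.6% with DESeq2's size factors and 45.5% with library totals. When either anti-m6A library was left out 4 genes were called higher, Timm10, Timm10b, Timm13 and Tomm5, and 0 lower. In those fits 3.16% and 3.41% of all genes tested were called higher and 0.614% and 0.776% lower.

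**Figure D2:**
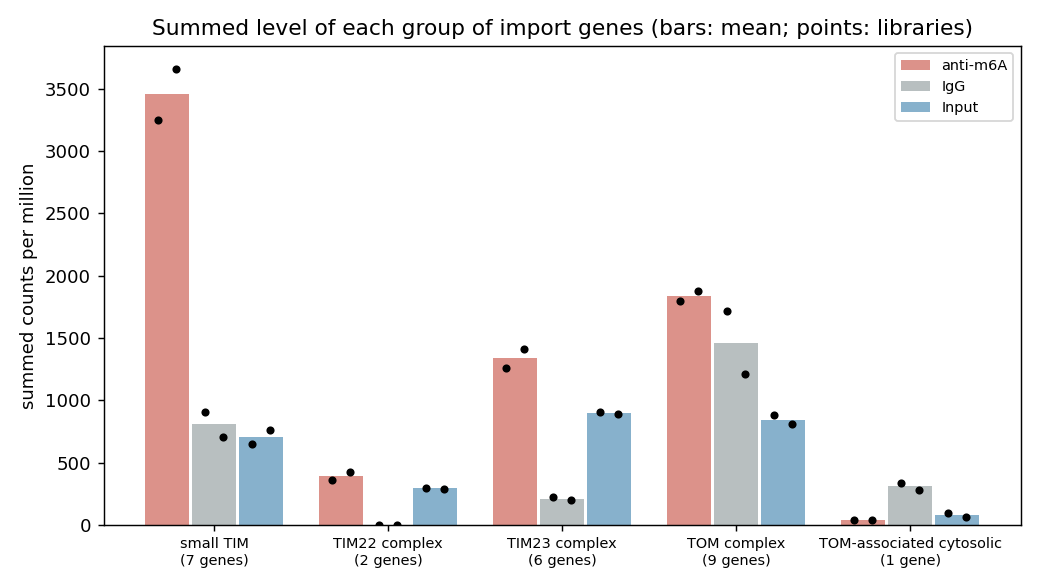
Summed level of each group of import genes, in TMM-scaled CPM. Bars are means of 2 libraries, points the libraries, red anti-m6A, grey IgG and blue Input. The 7 small TIM genes sum to 3252 and 3662 in anti-m6A and to between 652 and 908 in the other libraries, while the TOM genes sum to similar levels in anti-m6A and the higher IgG library.

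The small TIM proteins work as ring-shaped complexes in the intermembrane space, where Timm9 pairs with Timm10 and Timm8a1 pairs with Timm13. Summed over the 7 genes their level was 3252 and 3662 CPM in anti-m6A, 908 and 703 in IgG, and 652 and 765 in Input. Timm13 (chromosome 10, 80899450 to 80900969) stood at 1628 and 1879 CPM in anti-m6A, 677 and 528 in IgG, and 344 and 404 in Input. The groups did not overlap, and the log2 change of anti-m6A was 2.23 ± 0.21 against Input and 1.54 ± 0.21 against IgG (SE, n = 2 per group; edgeR adjusted p = 0.00716 and 0.00180). Timm10 (chromosome 2, 84827021 to 84830213), a partner of Timm9, was at 132 and 156 CPM in anti-m6A, 0 in both IgG libraries, and 3.08 and 2.23 in Input. Its Input values rest on 26 and 23 counts, and its log2 change against Input was 5.75 ± 0.40 (SE; edgeR adjusted p = 0.00716).

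Timm9 (chromosome 12, 71123172 to 71136708) was seen only after the m6A pull-down, with 111 and 100 counts in anti-m6A and 0 in each IgG and Input library. Its 24.1 ± 1.55 CPM in anti-m6A (SD, n = 2) was at least 74.7-fold above the Input floor and at least 15.5-fold above the IgG floor. These bounds describe a gene that entered the test through its anti-m6A counts alone, and 12.3% of all genes tested likewise had 0 counts in both Input libraries. The call against Input was lost when either anti-m6A library was left out (the highest edgeR adjusted p was 0.0652). Timm9 and Tomm20l overlap by 49 bases on opposite strands, so reads there cannot be told apart without strand. Timm8b, a paralogue of Timm8a1, was at 653 and 677 CPM in anti-m6A, 0 in both IgG libraries, and 159 and 138 in Input. Its log2 change against Input was 2.16 ± 0.22 (SE, edgeR adjusted p = 0.00716), and its 518-base reference transcript holds no GGACT, a sequence found in 42.2% of tested genes of like length. Without either anti-m6A library its call against Input was lost (the highest edgeR adjusted p was 0.0633).

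Timm10b, a small TIM bound to the TIM22 complex, was at 812 and 920.2 CPM in anti-m6A, 230.4 and 172 in IgG, and 144 and 219.9 in Input. Both anti-m6A values exceeded the other 4, while IgG and Input overlapped. Its log2 change was 2.25 ± 0.30 against Input and 2.10 ± 0.30 against IgG (SE, n = 2 per group; edgeR adjusted p = 0.00716 and 0.00207). A gene on the same strand, Gm45799, overlaps 3086 bases of it, so its counts may include other transcripts. Timm8a1, whose human counterpart is mutated in a deafness and dystonia syndrome, was rare, with 20 and 17 counts in anti-m6A, 2 and 3 in IgG and 8 and 8 in Input. Having passed the filter through anti-m6A alone, it was called higher against Input (log2 change 2.26 ± 0.47 SE, edgeR adjusted p = 0.0143) and against IgG (1.70 ± 0.52, edgeR adjusted p = 0.0275), but the call against IgG was kept in only 4 of 12 alternative fits and that against Input in 8 of 12. Per kb of reference transcript, the 7 genes included both rank 1 (Timm13) and rank 25 (Timm8a2) of the 25 coding import genes in anti-m6A.

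**Figure D3:**
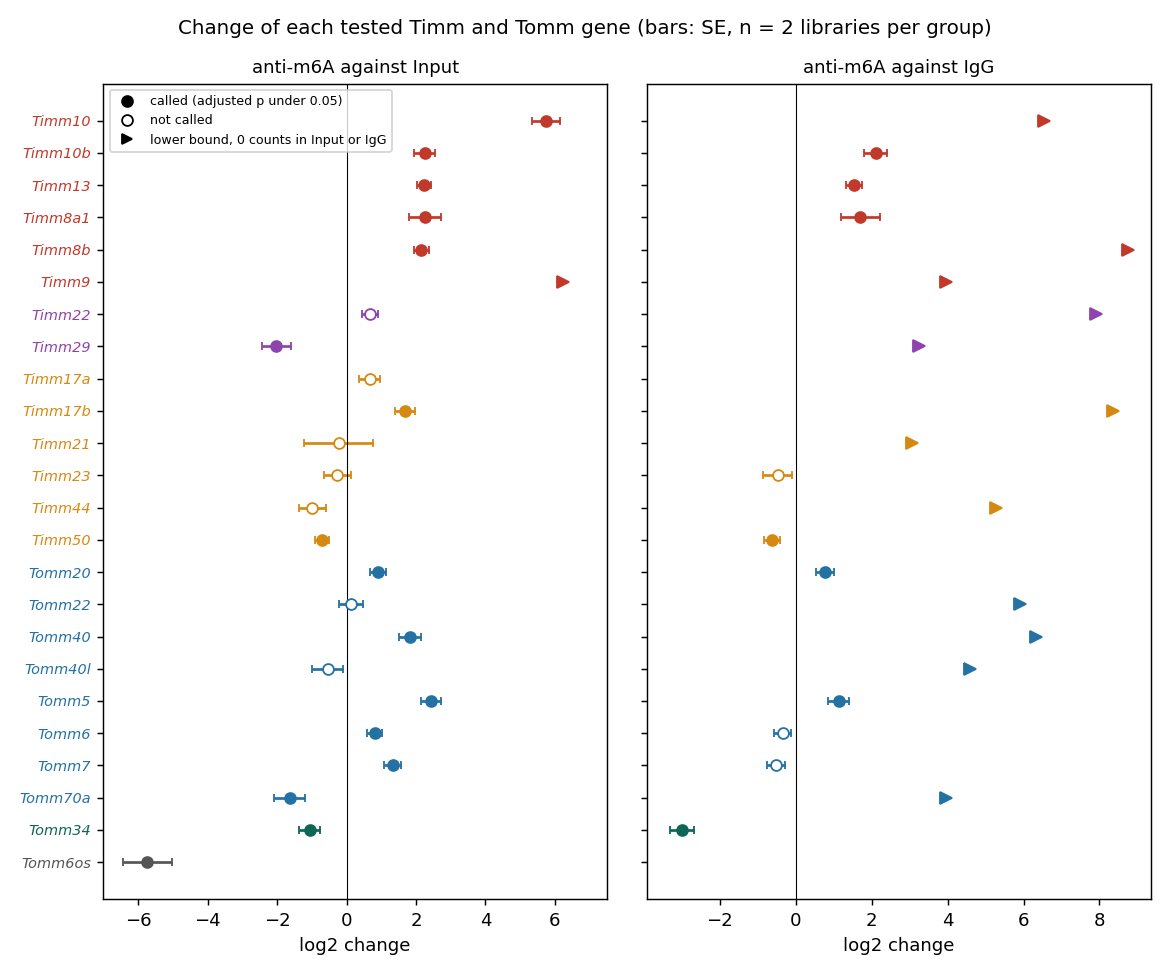
Log2 change of each tested import gene in anti-m6A against Input (left) and against IgG (right). Filled circles passed an adjusted p of 0.05, open circles did not, bars are SE with 2 libraries per group, and triangles are lower bounds for genes with 0 counts in the other group. All 6 tested small TIM genes lie right of 0 in both panels, Timm9 and Timm8a1 having passed the filter only through anti-m6A. Timm17a and Tomm6os, with 1 and 0 counts in IgG, are not drawn on the right, and the Tomm6os point on the left rests on 2 anti-m6A counts.

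In the TOM complex 5 of 8 tested genes were called higher than Input (Tomm5, Tomm6, Tomm7, Tomm20 and Tomm40) and Tomm70a was called lower. Tomm5, a small subunit beside the channel, was at 577 and 633 CPM in anti-m6A, 338 and 214 in IgG, and 109 and 116 in Input. It rose against both, with a log2 change of 2.43 ± 0.28 against Input and 1.13 ± 0.27 against IgG (SE, n = 2 per group; edgeR adjusted p = 0.00716 and 0.0116), and the call against IgG was lost without either anti-m6A library (the highest edgeR adjusted p was 0.0814). Tomm7, which acts on the assembly of the complex, was at 322 and 306 CPM in anti-m6A, 527 and 368 in IgG, and 131 and 119 in Input. Tomm6, which stabilises the complex, was at 519 and 551 CPM in anti-m6A, 791 and 565 in IgG, and 313 and 295 in Input. For both, every anti-m6A library was below every IgG library and above every Input library.

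Against Input Tomm7 rose in anti-m6A (log2 change 1.33 ± 0.24 SE, edgeR adjusted p = 0.0103, lost without either anti-m6A library at up to 0.116), and its IgG level was also higher than Input (1.84 ± 0.25, edgeR adjusted p = 0.00167). For Tomm6 the log2 change was 0.81 ± 0.22 in anti-m6A against Input (edgeR adjusted p = 0.0315) and 1.16 ± 0.22 in IgG against Input (0.00565). Against IgG neither passed the test in anti-m6A, at -0.51 ± 0.24 for Tomm7 (edgeR adjusted p = 0.0988) and -0.34 ± 0.22 for Tomm6 (0.195). Tomm7 was called lower than IgG in 4 of 13 alternative fits. The Tomm6 call against Input was lost in 6 of 13, both other scalings among them (the highest edgeR adjusted p was 0.284). The gene Gm21981 shares 1648 bases of the Tomm6 locus on the same strand, and 87.6% of the Tomm6 reference transcript matches it exactly.

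Tomm40, the channel, was at 134 and 117 CPM in anti-m6A, 0 in both IgG libraries, and 39.9 and 30.2 in Input. Its log2 change against Input was 1.84 ± 0.32 (SE, edgeR adjusted p = 0.0132), a call lost without either anti-m6A library (the highest edgeR adjusted p was 0.196). Tomm20, a receptor for presequences, was at 98.7 and 103 CPM in anti-m6A, 58.0 and 60.9 in IgG, and 52.2 and 55.4 in Input. The groups were apart, at 0.91 ± 0.23 against Input and 0.76 ± 0.23 against IgG (log2 change, SE; edgeR adjusted p = 0.0269 and 0.0277), but both calls were lost with library totals as scaling and without either anti-m6A library. Tomm22, the central receptor, was at 83.8 and 102 CPM in anti-m6A, 0 in both IgG libraries, and 67.0 and 103 in Input, and its log2 change against Input of 0.12 ± 0.35 (SE; edgeR adjusted p = 0.808) turned negative with the other scalings (-0.31 and -0.41).

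Tomm70a, the receptor for carrier proteins, was at 25.7 and 22.7 CPM in anti-m6A, 0 in both IgG libraries, and 97.3 and 52.7 in Input, and fell by 1.63 ± 0.45 on the log2 scale against Input (SE; edgeR adjusted p = 0.0439). The call was lost in 4 of 12 alternative fits, among them those without either anti-m6A library. Tomm40l, a second channel gene, was at 35.3 and 39.1 CPM in anti-m6A, 0 in both IgG libraries, and 69.9 and 38.3 in Input, with overlapping groups and no call (log2 change -0.54 ± 0.44 SE, edgeR adjusted p = 0.368). It shares 4691 bases with Nr1i3 on the opposite strand.

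Tomm34 is a cytosolic co-chaperone of import that is not a subunit of the channel complex. It stood at 42.3 and 34.8 CPM in anti-m6A, 339 and 277 in IgG, and 96.1 and 65.3 in Input. Anti-m6A was thus the lowest group and IgG the highest, with no overlap. Its log2 change was -3.00 ± 0.32 in anti-m6A against IgG and 1.93 ± 0.30 in IgG against Input (SE, n = 2 per group; edgeR adjusted p = 0.00100 and 0.00277), and both calls held in 13 of 13 alternative fits. Against Input anti-m6A was lower, at -1.06 ± 0.30 (edgeR adjusted p = 0.0347), a call lost in 6 of 13 fits. The gene overlaps Stk4 on the opposite strand by 848 bases.

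Of the presequence translocase, Timm17b was the only member of 6 called higher than Input. It was at 462 and 557 CPM in anti-m6A, 0 in both IgG libraries, and 188 and 129.6 in Input, and rose by 1.68 ± 0.30 on the log2 scale (SE, edgeR adjusted p = 0.0141), a call lost without either anti-m6A library (the highest edgeR adjusted p was 0.146). Its paralogue Timm17a was at 587 and 649 CPM in anti-m6A, 0.387 and 0 in IgG (1 count in all), and 345 and 433 in Input. It was not called against Input (0.67 ± 0.31, edgeR adjusted p = 0.132). Both are channel-forming subunits of the complex, and the difference between the paralogues was not tested.

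Timm50, the receptor of the complex, was at 118 and 122 CPM in anti-m6A, 201 and 166 in IgG, and 194 and 197 in Input. Anti-m6A was below both, at -0.71 ± 0.21 against Input and -0.62 ± 0.21 against IgG (log2 change, SE; edgeR adjusted p = 0.0439 and 0.0415). These calls lay close to the threshold, and 5 of 13 and 6 of 13 alternative fits lost them. Timm44, which tethers the import motor, was at 65.7 and 54.5 CPM in anti-m6A, 0 in both IgG libraries, and 152 and 85.7 in Input. Its log2 change against Input of -0.98 ± 0.40 was not called (SE; edgeR adjusted p = 0.114) but was called lower with both other scalings.

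Timm21, which links the complex to the outer membrane, was at 12.9 and 13.1 CPM in anti-m6A, 0 in both IgG libraries, and 3.91 and 26.5 in Input. The Input libraries disagreed, with 33 and 273 counts, so the change against Input (-0.23 ± 0.98 SE, edgeR adjusted p = 0.872) was 1.72 and called higher without Input replicate 2, and -1.01 and called lower without Input replicate 1. Timm23, the channel subunit after which the complex is named, was at 17.4 and 18.2 CPM in anti-m6A, 19.3 and 30.5 in IgG, and 20.8 and 21.9 in Input. None of its 3 comparisons was called. Its values are uncertain, because Gm10273 matches 95.6% of its transcript at 99.9% identity and 4 pseudogenes match a shorter stretch.

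The carrier translocase TIM22 gave different values for its subunits. Timm22, its channel, was at 342 and 409 CPM in anti-m6A, 0 in both IgG libraries, and 226 and 241 in Input, and the log2 change against Input of 0.69 ± 0.23 missed the threshold (SE; edgeR adjusted p = 0.0711). Timm29, a metazoan subunit, was at 16.4 and 13.1 CPM in anti-m6A, 0 in both IgG libraries, and 70.1 and 49.6 in Input. It fell by 2.02 ± 0.42 against Input on the log2 scale (SE; edgeR adjusted p = 0.0206), and the call was lost in 3 of 12 alternative fits, those without either anti-m6A library among them. The noncoding Tomm6os had 1 count in each anti-m6A library, 0 in both IgG libraries, and 150 and 94 in Input. From these counts Input was 57.2-fold above anti-m6A (exact 95% counting interval 15.7 to 475), with 777 bases of its locus shared with Tomm6 on the other strand. Having passed the filter through Input alone, it was called lower in anti-m6A (edgeR adjusted p = 0.00716), but not without either anti-m6A library (up to 0.170).

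The comparison with IgG asks what the m6A antibody held beyond the background antibody. Against IgG, anti-m6A gave 18 calls higher and 2 lower (Timm50 and Tomm34) among the 24 genes, where 73.1% of all genes tested were called higher and 8.31% lower. The family's share of higher calls was thus near the background. In both IgG libraries 13 of the 24 genes had 0 counts (54.2%), as did 73.4% of all genes tested. Apart from Tomm6os, with 1 count in each anti-m6A library, such genes have only a bound, from at least 8.36-fold for Timm21 to at least 428-fold for Timm8b. With 1 count in IgG, Timm17a was 2538-fold higher in anti-m6A (exact 95% counting interval 455 to 100300). The median log2 change was 3.16 over the family and 2.96 over all genes tested with genes at 0 set to their bound, and 9.19 and 8.48 from fitted values.

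Among the 11 import genes with any IgG count, the mean IgG level was above that of anti-m6A for Tomm6, Tomm7, Tomm34, Timm50 and Timm23 and below it for Timm13, Timm10b, Timm8a1, Timm17a, Tomm5 and Tomm20. Tomm6, Timm13 and Tomm7 together made up 62.3% of the family's IgG counts. IgG against Input gave 5 genes higher (Timm13, Tomm5, Tomm6, Tomm7 and Tomm34) and 13 lower of 24, where 9.89% of all genes tested were called higher and 61.5% lower. The 13 lower genes had at most 1 count in IgG, and where a bound could be set they were at least 1.71-fold (Timm10) to 150.3-fold (Timm22) lower than in Input. Timm9, at 0 in both groups, gave no fold. The Timm13 call against Input was the least stable of the 5 higher ones, kept in 4 of 13 alternative fits.

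Divided by the length of the reference transcript, levels can be set side by side between genes, as far as that length holds. The reference transcripts of Timm17a (7280 bases), Timm17b, Tomm40l and Tomm70a run past the 3′ ends of their RefSeq genes. With shorter transcripts their values per kb would be higher, among them that of Timm17a, 10th in anti-m6A at 84.8 ± 6.03 CPM per kb (SD, n = 2). In anti-m6A the order was Timm13 at 1432 ± 145 CPM per kb, Timm8b at 1283 ± 32.7, Tomm5 at 946 ± 61.4, Tomm6 at 714 ± 30.1, Tomm7 at 279 ± 9.83 and Timm10b at 265 ± 23.4 (SD, n = 2). Timm13 and Timm8b, and likewise Tomm7 and Timm10b, did not differ beyond their spread. In IgG it was Tomm6 at 905 ± 214, Timm13 at 492 ± 85.9, Tomm5 at 431 ± 137 and Tomm7 at 398 ± 99.6 CPM per kb, the last 3 within their spread. In Input Tomm6 led at 406 ± 17.5, followed by Timm13 at 305 ± 34.4 and Timm8b at 287 ± 28.6, which were within their spread, then Tomm5 at 176 ± 7.44 and Timm50 at 129 ± 1.46. Timm10 was 8th of the family in anti-m6A, at 209 ± 24.3 CPM per kb, and 21st in Input, at 3.85 ± 0.867.

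Transcript length moved with the change against Input, in the family and in the whole table. Of tested genes with a reference transcript under 1 kb, 5 of 5 import genes (Timm8b, Timm9, Timm10, Tomm5 and Tomm6) were called higher against Input, and so were 60.4% of all 733 such genes. Timm9 here, and Timm8a1 among those of 1 to 2 kb, passed the filter only through anti-m6A, which had largely fixed their calls. Tomm20l and Timm8a2 are as short but were not tested. From 1 to 2 kb it was 4 of 8 import genes against 29.6% of all 2386, from 2 to 4 kb 2 of 6 against 24.7% of 4107, and at 4 kb and over 1 of 4 against 19.4% of 3098. Of these 4, Timm17a, Tomm40l and Tomm70a have reference transcripts that run past their RefSeq gene ends, so their class may depend on the transcript chosen. The median log2 change of all genes tested was 1.48, 0.44, -0.10 and -0.43 in these 4 classes. Over the 23 tested coding import genes, with Timm9 at its fitted log2 change of 9.99, Spearman's rho between length and log2 change was -0.54 (Pearson -0.48 with log10 length). Over all 10324 genes it was -0.20 (-0.14). The mean Input level, as log2 (CPM + 1), followed the change more closely over all genes, at -0.44 (-0.59). For the 23 import genes rho with Input level was -0.11 (Pearson -0.57). Input is also the reference of this change, so level and change are not independent. These are descriptions across genes measured in the same 6 libraries, and the part of length or of Input level in the result was not tested.

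**Figure D4:**
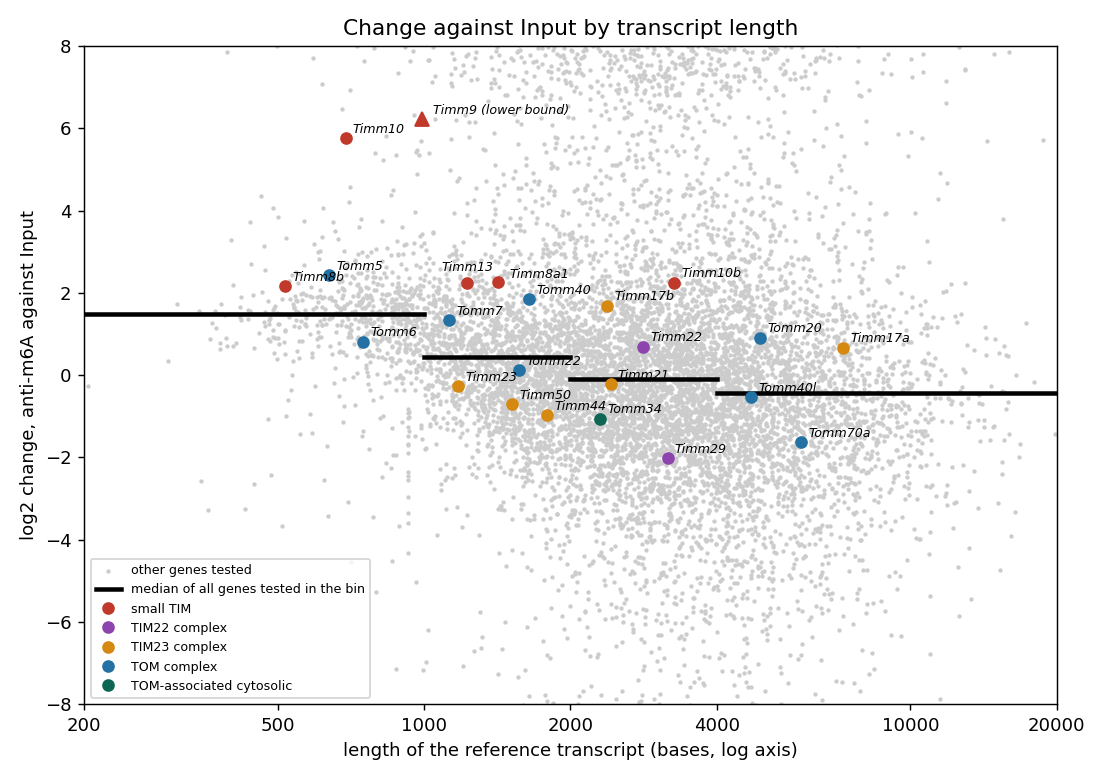
Log2 change of anti-m6A against Input by length of the reference transcript in bases, on a log axis. Grey points are other genes tested, at fitted values, and those outside the range of the axes are not drawn. Black lines are the medians of all genes tested under 1 kb, from 1 to 2 kb, from 2 to 4 kb and from 4 kb. Coloured points are the import genes by role, with Timm9 drawn at its lower bound against the Input floor instead of its fitted value. The medians step down from 1.48 to -0.43, and the 5 import genes drawn under 1 kb lie in the upper left, 4 of them above the line of their class.

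Of the small TIM genes that passed the filter through several groups, the longest, Timm10b, has a transcript of 3273 bases. Its log2 change was 2.25, where all genes tested of 2 to 4 kb had a median of -0.10 and an upper quartile of 1.81. Its counts may include those of Gm45799, which overlaps 3086 bases of it on the same strand. The other import genes of 2 to 4 kb were spread from -2.02 for Timm29 to 1.68 for Timm17b. The number of motif matches can be set beside the change in the same way. Of the 11 tested import genes with 3 or more GGACT, 3 were higher and 4 were lower than Input, and of the 12 with 2 or fewer, 9 were higher and 0 lower. Timm8a1 among the 11 and Timm9 among the 12 passed the filter only through anti-m6A, which had largely fixed their calls. Of all 6050 genes tested with 3 or more, 23.8% were higher and 24.2% lower, so the share of higher import genes in that class was near the background. With 0, 1 and 2 sites 38.7%, 31.4% and 26.9% of all genes were higher and 11.8%, 16.2% and 19.3% lower. Over all genes tested the median log2 change was 0.83 with no GGACT and -0.13 with 3 or more. A longer transcript has more room for the motif, so the number of sites and the length cannot be told apart here.

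Other parts of the import machinery can be set beside the family. A list of 28 genes covered the import motor, outer membrane assembly, oxidative folding, peptidases and matrix chaperones, with Agk and the inner membrane insertase Oxa1l. Of these 28, 27 were tested, with 7 calls higher and 3 lower against Input (28.0% and 20.5% of all genes tested) and a median log2 change of 0.34. Agk, a subunit of the TIM22 complex, had 52 and 49 anti-m6A counts and 0 in each IgG and Input library, at least 35.8-fold above the Input floor. Agk and Pitrm1 passed the filter only through anti-m6A, and Mtx3 only through Input, so these calls too were largely fixed by it. Pitrm1, which degrades presequences, was at 23.6 and 30.0 CPM in anti-m6A and 2.13 and 0.873 in Input (log2 change 4.14 ± 0.68 SE, edgeR adjusted p = 0.0118). Pmpca, a subunit of the presequence peptidase, was at 43.4 CPM in both anti-m6A libraries and 9.59 and 4.37 in Input (2.63 ± 0.58, edgeR adjusted p = 0.0250).

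Lower were Mtx3, a metaxin of the outer membrane, Grpel2, a nucleotide exchange factor of the motor, and Aifm1, which supports oxidative folding. Mtx3 stood at 2 and 0 anti-m6A counts against 197 and 176 Input counts, so that Input was 87.4-fold higher (exact 95% counting interval 24.0 to 724). Grpel2 was at 32.4 and 24.5 CPM in anti-m6A and 149.7 and 116 in Input (log2 change -2.22 ± 0.34 SE, edgeR adjusted p = 0.0100). Aifm1 was at 22.0 and 24.0 CPM in anti-m6A and 53.8 and 105 in Input (-1.79 ± 0.47, edgeR adjusted p = 0.0379). Against IgG 19 of the 27 were higher and 2 lower, near the 73.1% and 8.31% of all genes tested. In IgG against Input 4 were higher and 19 lower, where 9.89% and 61.5% of all genes tested were.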

How the data were processed

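A single table of whole-number read counts for each gene (Entrez numbers, 6 libraries) was deposited. Per the labels' protocols, libraries followed Smart-seq2 after oligo(dT) selection. That method marks neither strand nor single molecules. Per the submitters' processing notes, Picard, featureCounts, edgeR 3.38.1 and mm10 were used, with no role given. The aligner and annotation are not stated there. Of 27179 numbers 25275 matched a symbol in RefSeq for GRCm38.p6, the assembly mm10 names, from which gene coordinates (1-based) come.

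Here edgeR 4.0.16 (R 4.3.3) was used. filterByExpr (minimum count 10, total 15) kept 11281 genes, with TMM scaling. A quasi-likelihood fit took all 6 libraries and had 3 residual degrees of freedom. Benjamini-Hochberg adjustment ran over all genes tested, and a call is an adjusted p under 0.05. SE is the log2 change over the square root of F. A bound divides the mean CPM of a group by the mean CPM of 3 counts per library in the other. It takes in counting error alone, not the spread between libraries.

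The reference transcript of a gene was the best-ranked APPRIS coding transcript of GENCODE M21. Ties went to the better transcript support level and then to the longer transcript. Genes of like length are within 10% of its length. Near copies were found with blastn 2.17.0 (at least 95% identity over 50% of the transcript). Every Timm and Tomm gene is accounted for. Of the other import genes, the 3 largest called changes against Input in each direction are named. The genes and lists were chosen with earlier results of these data known. Alternatives, tried 1 at a time, were other scalings and count filters, DESeq2 1.42.0, only the 2 groups compared, a replicate block and leaving out each library.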

Additional observations from a re-analysis of the deposited data

How the results depend on the processing

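Against IgG the 18 higher and 2 lower calls became 16 and 4 with library totals, 17 and 1 with no count filter, 4 and 1 of 9 genes when every library had to hold 10 counts, and 15 to 18 and 1 to 3 when a library was left out. Against Input the 12 higher and 5 lower calls became 12 and 3 with no count filter and also with only the 2 groups compared, 4 and 2 of 9 genes with at least 10 counts, and 4 to 15 and 0 to 7 when a library was left out, with the lowest counts without either anti-m6A library. For IgG against Input, 5 higher and 13 lower calls became 3 and 13 with only the 2 groups compared, 2 and 2 with at least 10 counts, and 4 to 5 and 13 when a library was left out. The filter on 10 counts in every library removes genes at 0 in IgG by its construction. Of the 1757 genes it kept, 593 were called higher and 586 lower against IgG, and 410 and 518 against Input. For IgG against Input it was 480 and 571. With no count filter it was 8481 and 922 of 14425 genes against IgG, and 3314 and 2112 against Input. Library totals gave 7986 and 1147 of 11281 against IgG. Only the 2 groups compared gave 3431 and 2375 of 11262 against Input, and 953 and 6759 of 8639 for IgG against Input. DESeq2's Wald test gave 17 and 3, 10 and 6, and 4 and 14. Over all 11281 genes tested it gave 8424 and 1008, 3066 and 3635, and 1023 and 7421. Calls over all genes also moved when a library was left out. Where a group was left with 1 library, that library was assumed to vary like the others.

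With the replicate block the calls were 16 higher and 1 lower against IgG, 9 and 1 against Input and 4 and 13 for IgG against Input. Over all 11281 genes tested they were 7817 and 877, 2122 and 1242, and 1061 and 6705. The replicate numbers were not taken to pair the libraries. Deviations of same-numbered libraries from their group means correlated at 0.0415 to 0.0997 over 11281 genes, and at 0.0859 between anti-m6A and Input. Of these genes 73.4% had 0 counts in both IgG libraries, so the values that involve IgG cannot decide whether libraries were paired.

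Directions that turned are log2 changes, and the cause was not tested. Tomm22 against Input was -0.3063 with DESeq2's size factors, -0.4124 with library totals, -0.3075 with DESeq2's Wald test and -0.1396 to 0.4625 with a library left out. Timm21 against Input was 0.3274 with the replicate block and -1.009 to 1.72 with a library left out. Tomm6 against IgG was 0.005013 with at least 10 counts. For IgG against Input, DESeq2's size factors gave -0.2166 for Timm23, -0.3394 for Timm10b and -0.3226 for Tomm20. At least 10 counts gave -0.66, -0.7609 and -0.7445 for these and -0.2162 for Timm13. Only the 2 groups compared gave -0.1601, -0.277 and -0.2561, and DESeq2's Wald test -0.2438, -0.3394 and -0.343. With a library left out the range was -0.1788 to 0.4437 for Timm23, -0.1411 to 0.4761 for Timm10b, -0.3017 to 0.008318 for Timm50 and -0.1856 to 1.088 for Timm8a1.

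With 2 libraries a group and 1278735 counts in the shallower IgG library, counting error alone lets a gene at 0 there lie anywhere under 1.94 CPM. Changes against IgG are thus bounds for most genes, and these take in counting error only. Libraries of a group differed by more. For genes with at least 20 counts in the pair, the variance over sampling averaged 9.93 in anti-m6A, 21.9 in IgG and 119 in Input. For the import genes it was 7.83, 9.34 and 57.6. The true folds may therefore lie below the bounds.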
